A study of Mus musculus with 15 samples.

Results

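The genes described here build cholesterol and fatty acids or control how much of them is built. They are Hmgcs1, Idi1 and Sqle of the cholesterol route, Fasn and Acaca of fatty acid synthesis, the transcription factor genes Srebf2 and Srebf1, and Insig1, which encodes a protein that holds those factors back. They were chosen by gene symbol, 8 genes of the 51912 in the deposited table. Each symbol had 1 row, and all 8 genes passed the filter on low counts, which 15692 genes passed.

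Wild-type mouse B cells, labelled with no treatment beyond the culture, were profiled by RNA-seq of polyA RNA in 5 groups of 3 biological replicates. D6 is the unsorted culture at day 6, after 6 days on 40LB feeder cells, a fibroblast layer that supports B cells, with the cytokine IL-4 at 100 ng/ml. The other 4 groups were taken at day 8, when cells lifted off the feeders had spent 2 days in RPMI medium with no stimulus, and were sorted by isotype and stage, as iGC and PC of the IgE isotype and iGC and PC of the IgG1 isotype. PC stands for plasma cells and iGC is the labels' abbreviation for the other sorted population. All 5 groups therefore share the IL-4 and feeder culture, and day 6 differs from day 8 in culture conditions as well as in sorting. The animals' age and strain are not given in the labels. Calcium signalling in IgE-expressing plasma cells is the subject of the study's title.

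Cells make cholesterol from acetyl-CoA through the mevalonate route and fatty acids from the same precursor through malonyl-CoA. Both routes are switched on by SREBP transcription factors, which are made as membrane proteins in the endoplasmic reticulum, escorted by SCAP to the Golgi and cut there to release the active part. When sterols are plentiful, INSIG proteins hold SCAP in the endoplasmic reticulum, and Insig1 is itself an SREBP target. SREBP-2, from Srebf2, acts mainly on sterol genes, and SREBP-1, from Srebf1, on fatty acid genes as well. Plasma cells are known for an enlarged endoplasmic reticulum, whose membrane needs lipid.

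The libraries held 17740876 to 54067953 estimated counts, the lowest in IgE iGC replicate 3. Markers of the labelled cells were present. The 6 B cell markers summed to 3752 to 4019 TPM (a per-length measure of transcript abundance) in D6. Their sums were 7151 to 7525 TPM in IgE iGC and 7286 to 7461 TPM in IgG1 iGC. In IgE PC they were 1931 to 2138 TPM, and in IgG1 PC 2746 to 3234 TPM. The 6 plasma cell markers summed to 9837 to 10924 TPM in IgE PC and 6330 to 7665 TPM in IgG1 PC. Elsewhere they summed to 343 to 366 TPM in D6, 606 to 679 TPM in IgE iGC and 318 to 328 TPM in IgG1 iGC. IgG1 PC thus had more B cell and less plasma cell marker signal than IgE PC. What part this has in the isotype comparisons was not tested. The 10 fibroblast markers, which stand for feeder cells, summed to 73.9 to 125 TPM in D6, 19.0 to 25.9 TPM in IgE iGC, 10.7 to 21.6 TPM in IgG1 iGC, 4.72 to 8.32 TPM in IgE PC and 15.3 to 46.4 TPM in IgG1 PC. Of these, 7 of 10 reached 1 TPM in D6 and 4 of 10 in IgE PC, with Postn at 0 in all groups but IgG1 PC. The summed fibroblast level is thus highest in D6 and higher in IgG1 PC than in IgE PC, and its part in the results was not tested. The 4 T cell markers summed to at most 0.75 TPM, with Cd3e at 0 in most groups, and the 5 myeloid markers to at most 4.01 TPM. One library stood apart: immunoglobulin genes took 21.7% of the counts in IgG1 PC replicate 1, against 15.3% and 16.1% in the other IgG1 PC libraries.

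Immunoglobulin genes took 19.8% to 21.5% of the counts in IgE PC libraries and 15.3% to 21.7% in IgG1 PC libraries. In the other libraries they took 1.39% to 1.62%. The way libraries are put on a common scale matters for small changes, and how much of that comes from immunoglobulin transcripts was not tested. Values per library are given below as CPM, a gene's counts relative to the library total after TMM scaling, which assumes that most genes do not change. Fold changes are log2 values from edgeR's quasi-likelihood test with their standard error (SE), and a gene is called at a Benjamini-Hochberg adjusted p under 0.05 over all genes tested. Scaled by total count alone, the median log2 change of all genes moved from -0.08 to -0.55 for IgE PC against IgE iGC, and from 0.01 to -0.22 for IgG1 PC against IgG1 iGC. Falls of a member are therefore larger, and rises smaller, on that scale. Bulk RNA cannot tell fewer cells of a type from less RNA per cell.

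Promoters are shown for Hmgcs1, Insig1 and Fasn, which stand for the 3 patterns found below: a stepwise fall, a rise in plasma cells, and a fall mostly present in iGC cells. The sequences are from RefSeq (GRCm38.p6) and run 5′ to 3′ on the gene's strand. Those of Hmgcs1 and Fasn end just before RefSeq's start, which for Hmgcs1 lies upstream of the GENCODE gene start printed further on. That of Insig1 is cut at the GENCODE gene start, which lies upstream of RefSeq's. Capitals mark CCAAT, the box bound by NF-Y, which reads ATTGG on the opposite strand, and TCACNCCAC, a strict form of the sterol regulatory element. They come from chr13:119690101-119690350 (plus strand) for Hmgcs1, chr5:28071162-28071362 (plus strand) for Insig1 and chr11:120824548-120824797 (minus strand) for Fasn.
Hmgcs1: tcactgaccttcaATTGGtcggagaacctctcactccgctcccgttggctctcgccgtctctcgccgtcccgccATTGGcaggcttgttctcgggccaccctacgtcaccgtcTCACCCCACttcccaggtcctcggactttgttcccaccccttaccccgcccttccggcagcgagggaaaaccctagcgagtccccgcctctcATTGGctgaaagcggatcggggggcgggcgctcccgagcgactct
Insig1: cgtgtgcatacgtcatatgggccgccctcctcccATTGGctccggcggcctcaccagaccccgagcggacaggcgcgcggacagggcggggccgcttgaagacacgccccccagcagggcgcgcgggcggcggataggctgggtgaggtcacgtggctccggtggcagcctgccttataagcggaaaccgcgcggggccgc
Fasn: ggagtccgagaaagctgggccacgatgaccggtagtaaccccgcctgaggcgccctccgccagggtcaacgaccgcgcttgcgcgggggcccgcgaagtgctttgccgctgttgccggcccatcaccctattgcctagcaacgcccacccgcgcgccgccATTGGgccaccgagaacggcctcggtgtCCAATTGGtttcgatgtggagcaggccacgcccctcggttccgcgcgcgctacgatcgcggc
Hmgcs1 holds 1 strict sterol element, TCACCCCAC, which begins 137 bases before RefSeq's start, and 3 CCAAT boxes. Insig1 holds 1 CCAAT box in the stretch shown, and Fasn holds 3, of which a pair overlaps. Of 32851 promoter windows of 250 bases, both strands searched, 1.05% held TCACNCCAC and 33.8% held CCAAT. The looser form TCACNCNAC, which every strict match also fits, was in 2.26% of windows and added no match in these 3 promoters. Of the other members, Idi1 holds 2 CCAAT boxes, Srebf2 holds 1 and Acaca holds 0. The 3 starts of Srebf1 hold 1, 0 and 1, and Sqle has no entry. The Acaca window, chr11:84195188-84195437, lies inside the GENCODE gene, so the stretch before that gene's start was not searched. Both Idi1 boxes, which begin 45 and 14 bases before RefSeq's start, lie downstream of the GENCODE gene start. A match is a description of letters, and a missing match says only that these letters are not in the window.

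Levels between genes were compared per length, in TPM. At day 6 the sterol enzyme Hmgcs1 led with 251 ± 10.3 TPM (SD, n = 3), followed by Idi1 at 204 ± 4.40, Fasn at 193 ± 4.69, Srebf2 at 171 ± 4.10 and Insig1 at 169 ± 0.365. Sqle stood at 151 ± 2.50, Srebf1 at 68.5 ± 2.58 and Acaca at 63.6 ± 3.20 TPM. In IgE PC the order of enzymes and regulators was turned over. Insig1 led with 114 ± 1.79 TPM, then Srebf2 with 77.7 ± 4.11 and Srebf1 with 52.4 ± 3.76, all above Hmgcs1 at 39.9 ± 0.824, Sqle at 31.5 ± 1.77 and Fasn at 31.3 ± 2.13. Idi1 at 19.0 ± 1.04 and Acaca at 5.93 ± 0.670 TPM were lowest. Sqle and Fasn do not differ beyond their spread in that order. The turnover was not particular to IgE. In IgG1 PC, Insig1 at 100 ± 10.3 TPM and Srebf2 at 99.9 ± 12.95 also lay above every enzyme, of which Hmgcs1 was highest at 52.3 ± 14.8. Srebf1 at 53.5 ± 4.36 TPM in IgG1 PC did not differ from Hmgcs1 beyond their spread.

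A ratio of genes within 1 library does not depend on how libraries are scaled. The TPM of Hmgcs1 over that of Insig1 was 1.49 ± 0.0606 in D6 (SD, n = 3, as for each group). It was 1.35 ± 0.0389 for IgE iGC and 1.43 ± 0.0584 for IgG1 iGC. It was 0.351 ± 0.0120 in IgE PC and 0.517 ± 0.105 in IgG1 PC. Every plasma cell library had less Hmgcs1 than Insig1, and every other library more. The ratio of Hmgcs1 to Srebf2 fell in steps instead, from 1.47 ± 0.0272 in D6 to 0.900 ± 0.0108 for IgE iGC and 0.908 ± 0.0106 for IgG1 iGC, then 0.515 ± 0.0324 in IgE PC and 0.518 ± 0.10 in IgG1 PC; no test was made of these ratios.

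**Figure D1:**
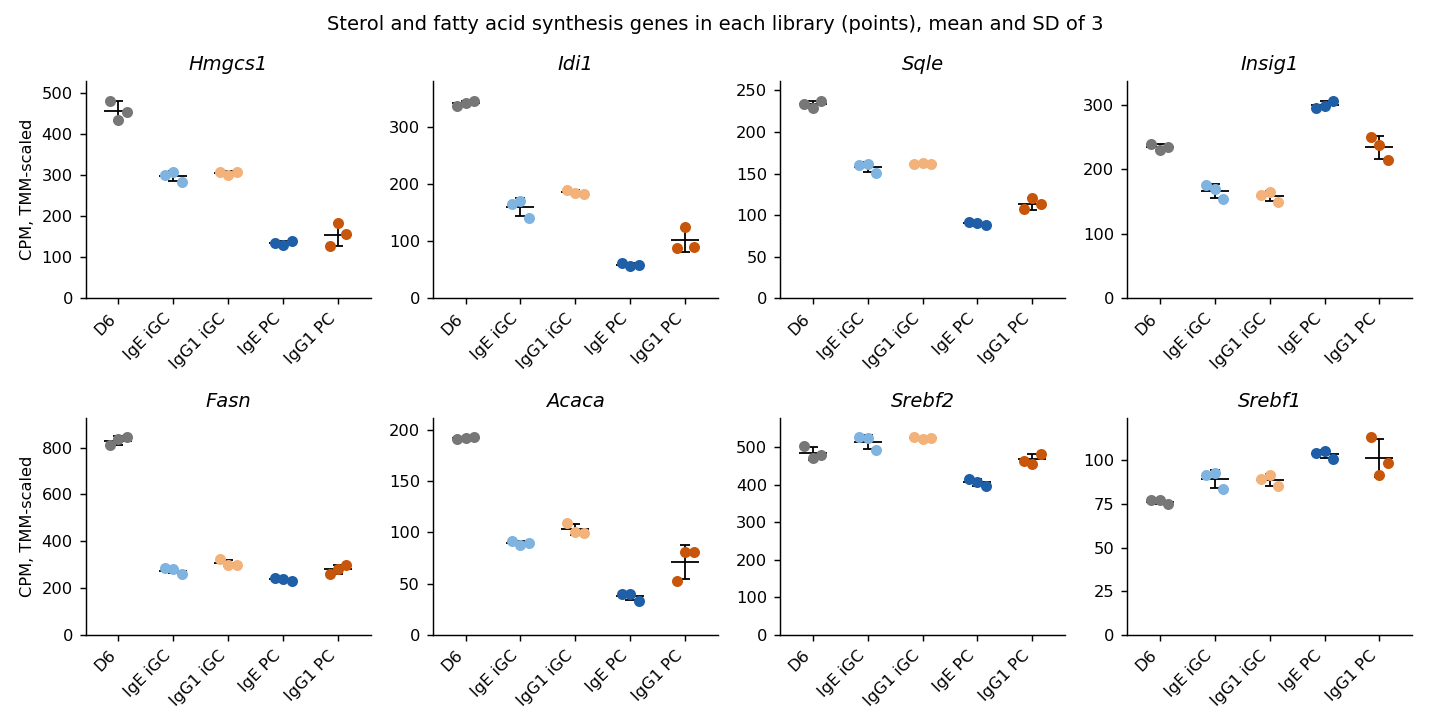
CPM (TMM-scaled, y axis from 0) of the 8 genes in each of the 15 libraries (points, 3 per group) with the group mean and SD. Hmgcs1, Idi1, Sqle and Acaca step down from D6 to iGC to PC, Fasn is low in all 4 day 8 groups, and Insig1 is highest in IgE PC on this scale, though highest in D6 by TPM.

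From iGC to plasma cells, the enzymes of sterol synthesis fell in both isotypes and Insig1 rose, by TMM and by total count. In IgE cells 8 of 8 passed the test, with 2 higher and 6 lower in PC, where 64.1% of all genes tested were called (30.5% higher, 33.6% lower). In IgG1 cells 7 of 8 passed, 2 higher and 5 lower, where 59.1% of all genes passed (30.1% higher, 29% lower). With so many genes changing, the counts alone set these genes little apart from the background, and the sizes below carry the description.

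Hmgcs1 (ENSMUSG00000093930, chr13:119690379-119708260, plus strand, GRCm38, as are all gene positions here) encodes the cytosolic HMG-CoA synthase, an early step of the mevalonate route. It read 301, 308 and 284 CPM in IgE iGC and 134, 129 and 141 CPM in IgE PC. IgG1 cells read 308, 300.4 and 308 CPM in iGC and 127, 183 and 155 CPM in PC. All plasma cell libraries lay below all iGC libraries, and the PC isotypes overlapped. The log2 change was -1.15 (SE 0.10) in IgE, adjusted p = 3.24e-08, and -0.98 (SE 0.10) in IgG1, adjusted p = 4.63e-07, by edgeR.

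Idi1 (ENSMUSG00000058258, chr13:8885501-8892451, plus strand) encodes the isomerase that makes the reactive isoprenoid unit. Its estimated counts were fractional in 14 of 15 libraries, a sign of reads shared with other loci, so its level is less certain. It read 166, 171 and 141 CPM in IgE iGC and 61.8, 56.0 and 58.8 CPM in IgE PC. IgG1 cells read 189.6, 185 and 183 CPM in iGC and 88.4, 126 and 90.0 CPM in PC. The fall was the largest of the 8 genes in IgE, -1.44 (SE 0.11), adjusted p = 1.56e-08, and was -0.88 (SE 0.11) in IgG1, adjusted p = 6.65e-06, by edgeR.

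Sqle (ENSMUSG00000022351, chr15:59315077-59331192, plus strand) encodes squalene epoxidase, a later enzyme of the cholesterol route. It read 161, 162 and 151 CPM in IgE iGC and 92.2, 90.3 and 87.8 CPM in IgE PC. IgG1 cells read 162, 162 and 162 CPM in iGC and 107, 121 and 113 CPM in PC. No PC library reached an iGC library, and the PC isotypes did not overlap. Its log2 change was -0.81 (SE 0.05) in IgE, adjusted p = 1.46e-09, and -0.51 (SE 0.05) in IgG1, adjusted p = 6.91e-07, by edgeR.

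Insig1 (ENSMUSG00000045294, chr5:28071363-28078662, plus strand) went the other way. It read 177, 169 and 155 CPM in IgE iGC and 296, 299 and 307 CPM in IgE PC. IgG1 cells read 161, 164 and 150.1 CPM in iGC and 250.2, 238 and 215 CPM in PC. All PC libraries lay above all iGC libraries, and IgE PC above IgG1 PC. The log2 change was 0.85 (SE 0.06) in IgE, adjusted p = 1.01e-08, and 0.56 (SE 0.06) in IgG1, adjusted p = 2.40e-06, by edgeR. Scaled by total count the rises were 0.38 and 0.33. By TPM the log2 ratio of group means was 0.06 in IgE, with every PC library above every iGC library, and -0.10 in IgG1, where the median of all genes was -0.81 in IgE and -0.56 in IgG1. With immunoglobulin genes left out of the TPM total, Insig1 was higher in PC on that scale too, with 193 ± 2.67 TPM in PC against 114 ± 4.35 in iGC of IgE, and 157 ± 10.4 against 111 ± 3.53 in IgG1 (SD, n = 3 each). Insig1 counts were fractional in 8 of 15 libraries.

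Srebf2 (ENSMUSG00000022463, chr15:82147181-82205379, plus strand) moved little on the TMM scale. It read 526, 525 and 493 CPM in IgE iGC and 415, 408 and 397 CPM in IgE PC. IgG1 cells read 526, 522 and 524 CPM in iGC and 464, 456 and 482 CPM in PC. The PC libraries were below the iGC libraries in both isotypes, and IgE PC below IgG1 PC. It changed by -0.34 (SE 0.05) in IgE, adjusted p = 1.52e-05, and -0.16 (SE 0.05) in IgG1, adjusted p = 0.00925, by edgeR. The IgG1 call was lost with only the groups compared (-0.15, adjusted p = 0.0999). Scaled by total count the falls were larger, at -0.81 in IgE and -0.40 in IgG1, where the all-gene medians were -0.55 and -0.22. By TPM the log2 ratios of group means were -1.08 and -0.76, where those medians were -0.81 and -0.56.

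Srebf1 (ENSMUSG00000020538, chr11:60199089-60222581, minus strand) has a direction that depends on the scale. It read 91.8, 92.8 and 83.5 CPM in IgE iGC and 104, 106 and 101 CPM in IgE PC. The IgG1 libraries read 89.4, 91.8 and 85.4 CPM in iGC and 113, 91.9 and 98.5 CPM in PC, so the groups all but met. The log2 change was 0.21 (SE 0.07) in IgE, adjusted p = 0.0119, and 0.19 (SE 0.07) in IgG1, adjusted p = 0.0274, by edgeR with TMM scaling. Scaled by total count it was -0.26 in IgE, adjusted p = 0.00155, and -0.05 in IgG1, adjusted p = 0.472, and by TPM the ratios were -0.66 and -0.58. Each of those values lies above the all-gene median of its scale except the TPM ratio in IgG1, where the median was -0.56. With immunoglobulin genes left out of the TPM total, the groups lay within their spread, at 86.1 ± 7.16 in IgE iGC and 88.6 ± 5.41 in IgE PC, and at 82.5 ± 6.82 in IgG1 iGC and 83.8 ± 2.03 in IgG1 PC (SD, n = 3 each). The call was also lost in IgE without IgE iGC replicate 3 (0.17, adjusted p = 0.0639), and in IgG1 without IgG1 iGC replicate 1 (0.19, 0.0623), IgG1 iGC replicate 3 (0.15, 0.11) or IgG1 PC replicate 1 (0.10, 0.132), without the filter (0.17, 0.0619) or with only the groups compared (0.20, 0.0974). The gene has 12 annotated transcripts, and the table does not separate its SREBP-1a and SREBP-1c forms.

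Fasn and Acaca encode the fatty acid synthase complex and the acetyl-CoA carboxylase that supplies its malonyl-CoA. Fasn (ENSMUSG00000025153, chr11:120805846-120824547, minus strand) read 284, 280.0 and 261 CPM in IgE iGC and 244, 241 and 229.9 CPM in IgE PC. In IgG1 cells it read 324, 299.8 and 298 CPM in iGC and 262, 281 and 297 CPM in PC. The groups were separate but close, with a log2 change of -0.21 (SE 0.06) in IgE, adjusted p = 0.00544, and -0.13 (SE 0.06) in IgG1, adjusted p = 0.0602, by edgeR. The IgG1 change was called with DESeq2 (-0.15, adjusted p = 0.00974), by total count (-0.36, adjusted p = 0.00059) and without IgG1 PC replicate 3 (-0.18, adjusted p = 0.0237). By TPM without immunoglobulin genes the IgG1 groups lay within their spread, at 73.2 ± 7.36 in iGC and 78.0 ± 9.56 in PC (SD, n = 3 each).

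Acaca (ENSMUSG00000020532, chr11:84129672-84401651, plus strand) fell further than Fasn. It read 91.7, 88.1 and 90.0 CPM in IgE iGC and 40.3, 39.5 and 33.3 CPM in IgE PC. In IgG1 cells it read 109, 101 and 99.4 CPM in iGC and 52.2, 80.9 and 81.1 CPM in PC, so that IgG1 PC replicate 1 lay well below the other IgG1 PC libraries. The log2 change was -1.25 (SE 0.13) in IgE, adjusted p = 4.17e-07, and -0.52 (SE 0.12) in IgG1, adjusted p = 0.00206, by edgeR. Without IgG1 PC replicate 1 the IgG1 change was -0.35, adjusted p = 0.00024. Acaca counts were fractional in 15 of 15 libraries.

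**Figure D2:**
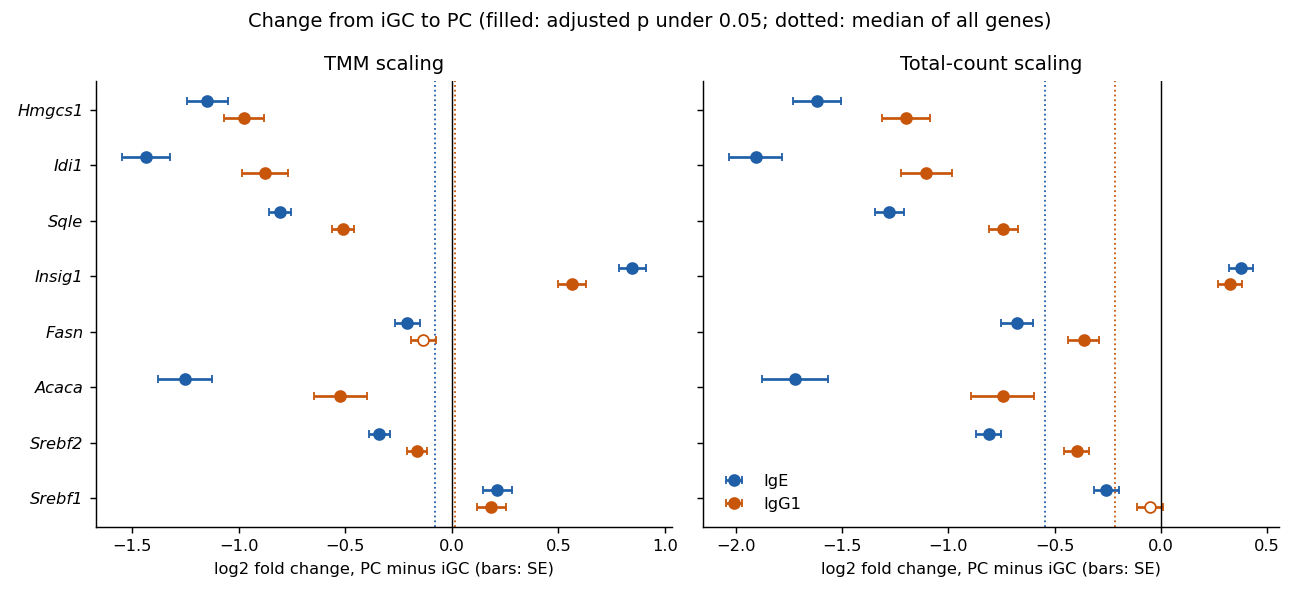
Log2 fold change from iGC to PC (x axis, bars are SE) of the 8 genes in IgE and IgG1 cells, scaled by TMM (left) and by total count (right), with filled points for adjusted p under 0.05 and dotted lines at the median of all genes. Hmgcs1, Idi1, Sqle and Acaca lie left of the median of all genes on both scales, as do Fasn and Srebf2 by less. Insig1 lies right of 0 on both, and Srebf1 changes side, from 0.21 to -0.26 in IgE.

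Between the isotypes, plasma cells differed in most of these genes. In IgE PC against IgG1 PC 6 of 8 were called, 1 higher and 5 lower, where 58.1% of all genes were called (27.4% higher, 30.7% lower). Acaca was lowest in relation, at -0.93 (SE 0.13), adjusted p = 1.89e-05, then Idi1 at -0.78 (SE 0.11), adjusted p = 2.27e-05, by edgeR. Sqle differed by -0.34 (SE 0.05), Fasn by -0.23 (SE 0.06) and Srebf2 by -0.20 (SE 0.05), with adjusted p of 5.57e-05, 0.00294 and 0.00226 by edgeR. Insig1 was higher by 0.36 (SE 0.06), adjusted p = 0.000193, but by total count the value was 0.11, adjusted p = 0.107. Hmgcs1 was not called at -0.21 (SE 0.09), adjusted p = 0.0701 by edgeR. That rests on IgG1 PC replicate 1, the lowest of its group: without it the value was -0.33, adjusted p = 0.000421, and without IgG1 PC replicate 2 it was -0.07, adjusted p = 0.469. By total count it was -0.47, adjusted p = 0.00212. Srebf1 was not called at 0.04 (SE 0.07), adjusted p = 0.665, and was -0.21 by total count, adjusted p = 0.0079.

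Among iGC cells none of the 8 genes was called between the isotypes by edgeR, where 3.87% of all genes were called (1.99% higher, 1.88% lower). The values ran from -0.22 for Idi1 (SE 0.11, adjusted p = 0.354) to 0.07 for Insig1 (SE 0.06, adjusted p = 0.687). At an unadjusted p under 0.05 there was 1, Fasn at -0.16 (SE 0.06, adjusted p = 0.179 by edgeR), and DESeq2 called 0. Fitted on these 2 groups alone, edgeR called 3 lower in IgE iGC: Acaca at -0.20 (adjusted p = 0.00962), Fasn at -0.17 (0.0384) and Idi1 at -0.23 (0.0424).

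An interaction, IgE minus IgG1, compared the isotypes in how each gene moved between iGC and PC. Of 8 genes 5 were called, 1 higher and 4 lower, where 42.9% of all genes were called (19.8% higher, 23.1% lower). Acaca fell further in IgE by -0.73 (SE 0.18, adjusted p = 0.00391), Idi1 by -0.56 (SE 0.15, adjusted p = 0.00852) and Sqle by -0.30 (SE 0.07, adjusted p = 0.00428), by edgeR. Insig1 rose further in IgE by 0.28 (SE 0.09, adjusted p = 0.0191), a call lost without IgE iGC replicate 3 (0.23, adjusted p = 0.051) or IgG1 iGC replicate 2 (0.26, adjusted p = 0.0514), and by total count (0.05, adjusted p = 0.641). Srebf2, at -0.18 (SE 0.07, adjusted p = 0.0491), lost its call in 9 of the 12 fits that each left out 1 library, with adjusted p from 0.0268 to 0.168. Hmgcs1 at -0.17 (SE 0.13, adjusted p = 0.327), Fasn at -0.07 (SE 0.08, adjusted p = 0.50) and Srebf1 at 0.03 (SE 0.10, adjusted p = 0.841) were not called; Hmgcs1 was called without IgG1 PC replicate 1 (-0.30, adjusted p = 0.0127) and by total count (-0.42, adjusted p = 0.0421), as was Fasn by total count (-0.31, adjusted p = 0.0239).

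Against the day 6 culture, all 5 synthesis enzymes were lower in every day 8 subset. These 4 comparisons share the same D6 libraries, so their values are given side by side and are not independent. In IgE iGC 7 of 8 genes were called, 1 higher and 6 lower (69.1% of all genes called, 32.8% higher and 36.3% lower), and in IgG1 iGC 8 of 8, 2 higher and 6 lower (68.4%, 32.4% higher and 36% lower). In IgE PC 8 of 8 were called, 2 higher and 6 lower (76.4%, 36.9% higher and 39.5% lower), and in IgG1 PC 6 of 8, 1 higher and 5 lower (71.9%, 35.9% higher and 36% lower).

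Fasn had the deepest drop between day 6 and the iGC cells. It read 809.9, 837 and 843 CPM in D6, with every day 8 library at or below 324 CPM. The log2 change was -1.59 (SE 0.06) in IgE iGC, adjusted p = 5.89e-12, and -1.43 (SE 0.06) in IgG1 iGC, adjusted p = 1.84e-11, against -1.80 (SE 0.06) in IgE PC and -1.57 (SE 0.06) in IgG1 PC, adjusted p = 4.71e-13 and 4.26e-12, by edgeR. Acaca read 191, 192 and 192 CPM in D6 and changed by -1.09, -0.90, -2.35 and -1.42 in IgE iGC, IgG1 iGC, IgE PC and IgG1 PC. The larger share of the Fasn fall was thus already present in iGC cells, while Acaca in IgE fell about as much again from iGC to PC.

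Among the sterol enzymes Hmgcs1 read 481, 434 and 454 CPM in D6, Idi1 337, 342 and 346 CPM, and Sqle 233, 229 and 238 CPM. All 3 were above every day 8 library. In IgE iGC, IgG1 iGC, IgE PC and IgG1 PC in turn, Hmgcs1 changed by -0.62, -0.58, -1.76 and -1.55. Idi1 changed by -1.10, -0.88, -2.54 and -1.75, and Sqle by -0.56, -0.53, -1.37 and -1.04 in the same order. All 12 changes were called by edgeR.

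With TMM scaling the control genes differed from D6 in both directions. Insig1 read 239.7, 231 and 235 CPM in D6 and was lower in iGC cells, by -0.49 (SE 0.06) in IgE and -0.57 (SE 0.06) in IgG1, adjusted p = 5.34e-06 and 1.20e-06 by edgeR. In IgE PC it was 0.35 (SE 0.06) above D6, adjusted p = 0.000114, but -0.18 by total count, adjusted p = 0.00949, and in IgG1 PC it overlapped D6 at -0.01 (SE 0.06), adjusted p = 0.945, but was -0.29 by total count, adjusted p = 0.000319. By total count Insig1 was thus called lower than D6 in all 4 subsets. Srebf1 read 77.1, 77.3 and 75.1 CPM in D6, below every day 8 library, and was higher by 0.23 and 0.22 in IgE iGC and IgG1 iGC. In IgE PC and IgG1 PC it was higher by 0.44 and 0.40, but by total count the values were -0.09, adjusted p = 0.171, and 0.12, adjusted p = 0.0993, and by TPM -0.39 and -0.36. With immunoglobulin genes left out of the TPM total it was again higher than D6, at 70.8 ± 2.65 in D6, 88.6 ± 5.41 in IgE PC and 83.8 ± 2.03 in IgG1 PC (SD, n = 3 each). Srebf2 read 502, 470.1 and 479 CPM in D6; it was called lower in IgE PC at -0.25 (SE 0.05), adjusted p = 0.000221, and higher in IgG1 iGC at 0.11 (SE 0.05), adjusted p = 0.0482, a call lost in 5 of 6 fits that left out a library (adjusted p from 0.0269 to 0.161). In IgE iGC it was not called at 0.09, adjusted p = 0.115 by edgeR, but was with only the groups compared (0.14, adjusted p = 0.0109), and in IgG1 PC it was not called at -0.05, adjusted p = 0.376, but was by total count (-0.33, adjusted p = 0.000103).

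**Figure D3:**
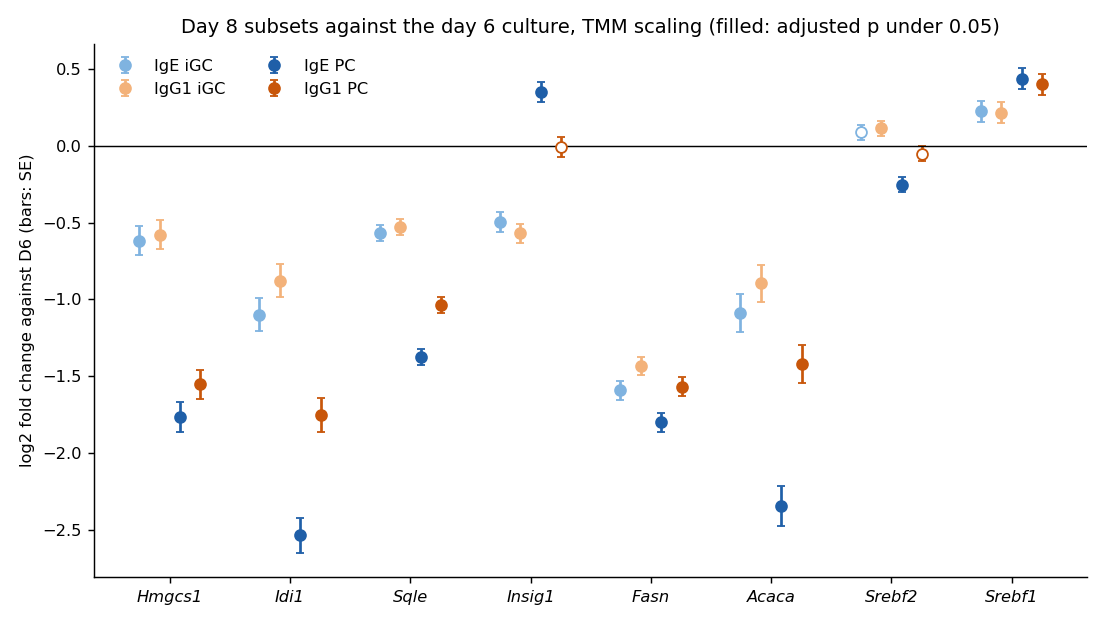
Log2 fold change against the day 6 culture (y axis, TMM scaling, bars are SE) of the 8 genes in the 4 day 8 subsets, with filled points for adjusted p under 0.05. Fasn lies between -1.80 and -1.43 in all 4 subsets, whereas Idi1 runs from -0.88 in IgG1 iGC to -2.54 in IgE PC, and Srebf1 lies above 0 on this scale in all 4, though at -0.09 in IgE PC by total count.

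Hmgcs1, Idi1, Sqle, Acaca, Fasn and Srebf2 share 1 order of the groups by TPM. It runs D6, IgG1 iGC, IgE iGC, IgG1 PC, IgE PC. By CPM only Hmgcs1, Idi1, Sqle and Acaca keep that order. In TPM, libraries of the iGC isotypes overlapped for Hmgcs1, Sqle, Fasn and Srebf2, and those of the PC isotypes for Hmgcs1. D6 and iGC libraries also overlapped for Srebf2. The order by TPM and by CPM differed for 4 of 8 genes, Fasn, Insig1, Srebf1 and Srebf2. Srebf1 was highest in IgE iGC by TPM, 82.8 ± 6.87, and highest in IgE PC by CPM, 104 ± 2.40 (SD, n = 3 each), as by TPM without immunoglobulin genes. The direction of called changes over all genes moved with the scale too. By total count 2651 genes were higher and 8743 lower in IgE PC against IgE iGC, where TMM gave 4788 and 5270, and 3226 were higher and 6840 lower in IgG1 PC against IgG1 iGC, where TMM gave 4720 and 4553. For IgE PC against IgG1 PC the split was 2272 and 7265 in place of 4303 and 4816, and for the interaction 1542 and 5603 in place of 3101 and 3632. Against D6 it was 3311 and 9032 in place of 5792 and 6191 for IgE PC, and 3964 and 7370 in place of 5636 and 5645 for IgG1 PC. Of the 8 genes, 0 were higher and 7 lower by total count in IgE PC against IgG1 PC, and 1 higher and 7 lower in IgE PC against IgE iGC. The counts were 1 and 6 in IgG1 PC against IgG1 iGC, 0 and 6 for the interaction, and 0 and 7 in each PC group against D6.

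Most other enzymes of the cholesterol route also fell from iGC to plasma cells. Of 18 other enzymes, 1 rose and 15 fell in IgE PC against IgE iGC, with a median log2 change of -0.55 where that of all genes was -0.08. In IgG1 cells 1 rose and 14 fell, with a median of -0.39 against 0.01. Of all genes tested, 30.5% rose and 33.6% fell in IgE, and 30.1% rose and 29% fell in IgG1. The largest falls in IgE were Hsd17b7 at -1.80 and Acat2 at -1.79, followed by Mvk, mevalonate kinase, at -1.36. Hsd17b7 encodes a sterol ketone reductase and Acat2 the thiolase that starts the route. Ebp, a sterol isomerase, was the 1 enzyme that rose, by 1.30 (SE 0.10) in IgE and 1.06 (SE 0.10) in IgG1, adjusted p = 2.22e-08 and 5.31e-07 by edgeR.

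**Figure D4:**
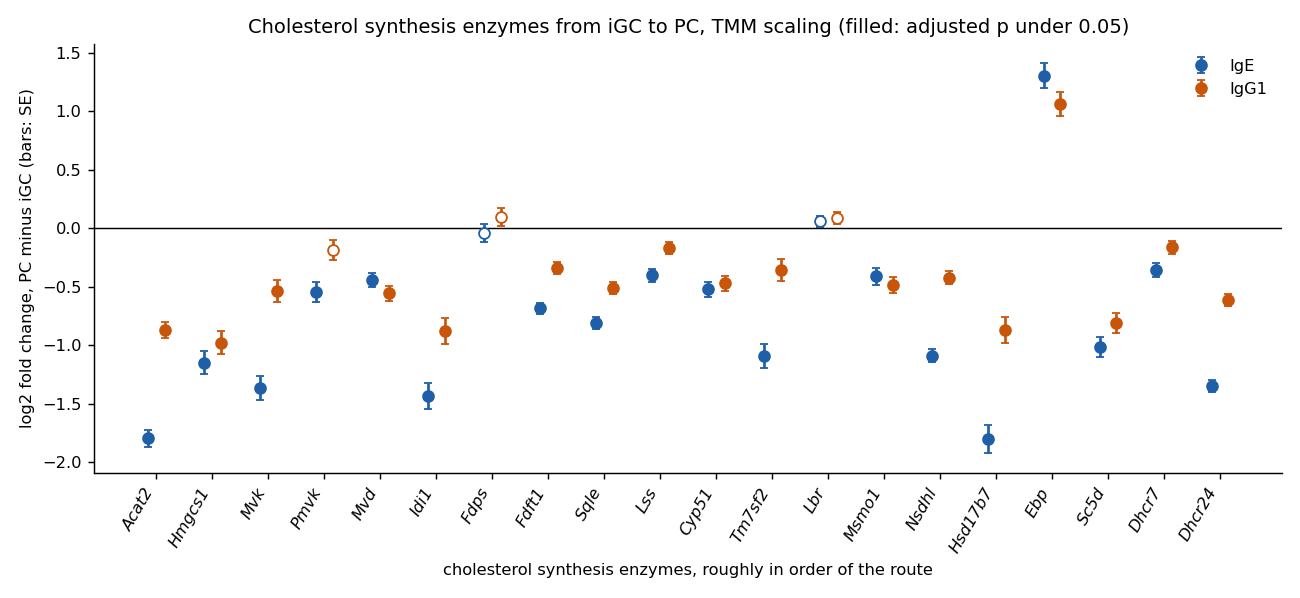
Log2 fold change from iGC to PC (y axis, TMM scaling, bars are SE) of 20 cholesterol synthesis enzymes, Hmgcs1, Idi1 and Sqle among them, in IgE and IgG1 cells, with filled points for adjusted p under 0.05. In IgE 17 enzymes fell and in IgG1 16, Ebp rose in both, and Lbr and Fdps were not called in either.

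Between the PC isotypes 2 of the 18 other enzymes were higher in IgE and 11 lower, with a median of -0.24 against -0.05 for all genes. The all-gene shares were 27.4% higher and 30.7% lower. By total count 0 of the 18 were higher and 15 lower, where 2272 of all genes were higher and 7265 lower. Hsd17b7 (-1.08), Acat2 (-1.02) and Mvk (-0.94) differed most. The interaction called 0 higher and 10 lower, Hsd17b7 at -0.93, Acat2 at -0.93 and Mvk at -0.83 among them. Over all genes it called 19.8% higher and 23.1% lower. Among iGC cells, where 3.87% of all genes were called, 1 of 18 was, Lbr, at 0.22 (SE 0.05, adjusted p = 0.0245 by edgeR). Its product is both a sterol reductase and a nuclear envelope protein. Against D6, iGC cells had 6 higher and 8 lower in IgE and 5 higher and 7 lower in IgG1, shares near those of all genes. In IgE PC 4 were higher and 13 lower, and in IgG1 PC 5 were higher and 10 lower. All-gene shares were 36.9% higher and 39.5% lower in IgE PC, and 35.9% and 36% in IgG1 PC.

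Genes that control SREBP processing and turnover were called more often higher than lower in IgE on the TMM scale. Of 9, 6 rose and 1 fell in IgE PC against IgE iGC, with a median of 0.43, against 2 and 2 in IgG1, with a median of 0.02. By total count the IgE split was 3 and 2, with a median of -0.04 where that of all genes was -0.55. The IgG1 split was 0 and 6. Over all genes, 30.5% rose and 33.6% fell in IgE by TMM, and 30.1% rose and 29% fell in IgG1. Insig2, the second INSIG gene, rose by 0.83 (SE 0.09) in IgE, adjusted p = 1.31e-06 by edgeR, and was not called in IgG1 at 0.18 (SE 0.09, adjusted p = 0.111). Erlin2, a membrane protein of the endoplasmic reticulum, rose by 0.64 in IgE. Mbtps1 encodes the site-1 protease that makes the initial cut in SREBP. It rose by 0.43 in IgE and 0.29 in IgG1, but was -0.04 in IgE by total count.

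Scap, the escort, was the 1 gene of that list that fell in IgE, by 0.25 (SE 0.05), adjusted p = 0.000533, and was not called in IgG1, adjusted p = 0.968 by edgeR. Mbtps2, the site-2 protease, fell by 0.79 and Erlin1 by 0.30 in IgG1. Between the PC isotypes 8 of 9 were higher in IgE and 1 lower, with a median of 0.40, and by total count 5 were higher and 1 lower. Over all genes tested, 27.4% were higher and 30.7% lower by TMM, with a median of -0.05. By total count 2272 of all genes were higher and 7265 lower. Mbtps2 (0.98), Rnf139, a ubiquitin ligase (0.92), and Erlin2 (0.63) led, and Scap was lower at -0.31. The interaction called 6 higher, with Mbtps2 (1.01), Rnf139 (0.76) and Insig2 (0.65) leading, and 1 lower, Scap at -0.25 (SE 0.07, adjusted p = 0.0127 by edgeR). Over all genes it called 19.8% higher and 23.1% lower. None of the 9 was called between the iGC isotypes, where only 3.87% of all genes were called.

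Sterol uptake, storage and efflux genes went both ways. Of 12 tested, 5 rose and 5 fell in IgE PC against IgE iGC and 6 rose and 6 fell in IgG1, with medians of 0.23 and 0.01. By total count 3 were higher and 6 lower in each isotype, with medians of -0.24 and -0.22. Over all genes, 30.5% rose and 33.6% fell in IgE by TMM, and 30.1% rose and 29% fell in IgG1. Abca1, a cholesterol exporter, read 9.32, 9.77 and 10.5 CPM in IgE iGC and 91.1, 84.7 and 95.9 CPM in IgE PC. In IgG1 cells it read 3.07, 4.97 and 4.64 CPM in iGC and 31.7, 35.1 and 43.2 CPM in PC. The rise was 3.20 (SE 0.18) in IgE and 3.13 (SE 0.18) in IgG1, adjusted p = 3.87e-10 and 2.60e-09 by edgeR.

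Abcg1, another sterol exporter, rose by 1.42 in IgE and 0.73 in IgG1. Lipa, the lysosomal acid lipase, rose by 1.41 in IgE. Scarb1, a receptor for HDL, fell by 1.70 in IgE, and in IgG1 the largest falls were those of Soat1 at -1.02, which esterifies cholesterol, and Stard4 at -0.90, a sterol carrier. Between the PC isotypes Abca1 (1.30) and Lipa (1.27) were higher and Scarb1 (-1.45) lower in IgE. The interaction called 3 higher and 3 lower, among them Scarb1 (-1.49), Lipa (1.05) and Abcg1 (0.69), and did not call Abca1 at 0.08 (SE 0.25, adjusted p = 0.833 by edgeR). By total count it called 1 higher and 5 lower. Over all genes the interaction called 19.8% higher and 23.1% lower by TMM.

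Of the genes that supply, elongate and desaturate fatty acids, 19 of 21 were tested (Thrsp and Scd3 were not). In IgE PC against IgE iGC 4 rose and 8 fell, median -0.02, and in IgG1 8 rose and 6 fell, median 0.13. By total count the splits were 3 and 13, and 4 and 8. Over all genes, 30.5% rose and 33.6% fell in IgE by TMM, and 30.1% rose and 29% fell in IgG1. Scd1, a desaturase of the endoplasmic reticulum, read 388, 363 and 372 CPM in D6, 1048, 1068 and 1159 CPM in IgE iGC and 341, 338 and 335 CPM in IgE PC. In IgG1 cells it read 1244, 1234 and 1267 CPM in iGC and 391, 591 and 550.1 CPM in PC. It was thus highest in iGC cells, up from D6 by 1.54 in IgE and 1.74 in IgG1, whereas Fasn and Acaca were lower in them. It fell to PC by 1.69 (SE 0.11) in IgE and 1.29 (SE 0.11) in IgG1, adjusted p = 1.54e-09 and 8.72e-08 by edgeR.

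Scd2, another desaturase, was not called from iGC to PC, at -0.02 in IgE and -0.03 in IgG1 (SE 0.05 each, adjusted p = 0.751 and 0.679 by edgeR). Acly, which makes cytosolic acetyl-CoA from citrate, fell by 0.24 in IgE and 0.13 in IgG1. Hsd17b12, an elongation enzyme, fell by 1.08 and 0.49, and Acss2, which makes acetyl-CoA from acetate, rose by 1.06 and 0.77. Fads2, a desaturase of polyunsaturated chains, had the largest called interaction of these genes, -1.28 (SE 0.12, adjusted p = 1.47e-06 by edgeR), and was lower in IgE PC than in IgG1 PC by 1.25. In iGC cells against D6 4 of 19 rose and 11 fell in IgE and 3 rose and 12 fell in IgG1. The all-gene shares there were 32.8% higher and 36.3% lower in IgE, and 32.4% and 36% in IgG1. None of the 19 was called between the iGC isotypes, where only 3.87% of all genes were called.

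Across the 15 libraries the enzymes ran together in log2 CPM, described here with no test since the libraries share 5 groups. Pearson's r was 0.993 for Sqle and Idi1, 0.980 for Hmgcs1 and Sqle and 0.977 for Idi1 and Acaca. Fasn stood at 0.763 with Hmgcs1 and 0.849 with Acaca. Srebf1 ran against all 5 enzymes, from -0.931 with Hmgcs1 to -0.809 with Fasn, on this scale. Insig1 stood at -0.539 with Hmgcs1 and -0.898 with Srebf2.

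The genes most like each of 4 members were sought by the same r among 8245 genes. For Hmgcs1 they were Sc5d (0.994), Cstf2 (0.992), Stard4 (0.991), Szrd1 (0.990) and Tra2a (0.989); Sc5d is an enzyme of late cholesterol synthesis. For Fasn they were Nol6 (0.996), Rbm19 (0.993), Utp20 (0.993), Pmpca (0.993) and Nifk (0.993), of which Nol6, Rbm19, Utp20 and Nifk encode nucleolar proteins. For Srebf1 they were Rab5c (0.979), Zbtb48, Asb6, Higd2a and Cyhr1 (0.967). For Srebf2 they were Nt5c (0.983), Mknk2, Them6, Ifi30 and Hs1bp3 (0.975).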

How the data were processed

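Members and gene lists were chosen with earlier results of these data known. PolyA RNA libraries (KAPA mRNA HyperPrep) were sequenced as strand-specific single reads of 76 bases, per the labels' protocols. The submitters' processing notes name cutadapt 1.9.1, STAR 2.5.2a, RSEM 1.3.0, DESeq2 1.12.3 and GRCm38. The authors deposited an expected count (RSEM's estimated count, not always whole) and a TPM value per gene and library, per the file headers. Symbols matched 51633 of 51912 identifiers; annotation was GENCODE vM21.

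Expected counts were rounded, filtered with filterByExpr (minimum count 10, minimum total 15), scaled by TMM and fitted with 1 mean per group over 15 libraries in edgeR 4.0.16 (R 4.3.3; glmQLFit, robust, and glmQLFTest). The SE is the log2 fold change over the square root of F, which is approximate. The common dispersion was 0.0109. The fit was tested on simulated counts with known changes. That simulation changed few genes, in IgE PC only, so it does not show how the fit or TMM scaling does where most genes are called. Depth was 17740876 to 54067953 counts per library. P-values measure the spread between replicates the labels call biological. The text names the members, a few fixed pathway genes, and, for each list in each comparison other than those with D6, up to 3 called genes with the largest change that reach 10 CPM; Ebp and Mbtps1 in IgE, and Fdps and Lbr from iGC to PC, were named after their values were seen. Some genes are counted in the lists but not reported here. Alternatives were DESeq2 1.42.0, RLE scaling, total-count scaling, 396 immunoglobulin genes left out, no filter, only the groups compared, a replicate block, and each library left out.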

Additional observations from a re-analysis of the deposited data

Results flagged for a closer look

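For 5 of the 8 genes the step between iGC and PC was not the same size in IgE and IgG1 by edgeR's test of that difference (IgE minus IgG1, log2). The values were -0.73 for Acaca, -0.56 for Idi1 and -0.30 for Sqle, which fell further in IgE, -0.18 for Srebf2 and 0.28 for Insig1, which rose further in IgE. Of all genes tested, 42.9% passed the same test. Acaca, Idi1 and Sqle kept their sign and their call in every alternative fit run, whereas Srebf2 and Insig1 did not.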

How the results depend on the processing

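Of the fold changes of members refitted under other settings, 912 kept direction and call, 34 lost the call, 19 gained it and 19 changed sign. Total count changed 7 signs, the highest share of any setting, and leaving out 1 library 9 over many more fits. By total count Srebf1 was -0.21 (IgE PC against IgG1 PC), -0.0062 (iGC isotypes), -0.26 and -0.052 (PC against iGC in IgE and IgG1), -0.20 (interaction) and -0.094 (IgE PC against D6), and Insig1 -0.18 (IgE PC against D6). That scale divides by totals in which immunoglobulin transcripts count. With immunoglobulin genes left out, Insig1 and Srebf2 in IgG1 PC against D6 were 0.055 and 0.011, and with only those groups fitted Insig1 was 0.010; neither was called. Leaving out 1 library turned only uncalled values, which ran from -0.047 to 0.060 for Insig1 in IgG1 PC against D6, from -0.019 to 0.054 for Srebf1 and -0.042 to 0.0055 for Srebf2 between iGC isotypes, from -0.021 to 0.12 for Srebf1 between PC isotypes and from -0.036 to 0.11 for its interaction. Between the iGC isotypes 607 genes were called, 922 with DESeq2, 1503 with only these groups fitted and 323 to 403 with 1 library left out; only the fit on these groups called members, 3. Members called in the interaction ran from 3 to 6 with 1 library left out; 3 were left without IgG1 iGC replicate 2.

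With the replicate number as a block, 4 members were called in the interaction in place of 5 and 7 in IgG1 iGC against D6 in place of 8, Srebf2 being lost in both (-0.18 and 0.11, adjusted p = 0.0572 and 0.0544 by edgeR); no other member's call changed. The labels do not tie the numbers to an animal: over 30 pairs of same-numbered libraries the correlation of deviations ran from -0.195 to 0.0908, and 3 of 15 libraries correlated best with their own number. The Srebf2 interaction was also lost with RLE scaling (-0.14), without immunoglobulin genes (-0.12) and without the filter (-0.18).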

Other observations

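Genes of mitochondrial fatty acid oxidation and of phospholipid synthesis were also counted. Of all genes tested, 30.5% rose and 33.6% fell from iGC to PC in IgE by TMM (median -0.08). In IgG1 30.1% rose and 29% fell (median 0.01). Of 13 oxidation genes, 5 rose and 5 fell in IgE PC against IgE iGC (median 0.09) and 6 rose and 2 fell in IgG1 (median 0.17); by total count the splits were 2 and 10, and 3 and 4. Hadhb, a subunit of the mitochondrial trifunctional enzyme, rose by 1.24 in IgE and 0.90 in IgG1, and Etfdh, another of the 13 genes, by 1.10 and 0.64. Acadvl, the very long chain acyl-CoA dehydrogenase, rose by 0.62 in IgE and 0.63 in IgG1. Cpt1a, which lets long chains into mitochondria, was higher in IgE than in IgG1 among both iGC (0.47) and PC (0.43).

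Of 14 phospholipid synthesis genes, 8 rose and 3 fell in IgE PC against IgE iGC (median 0.19). In IgG1 4 rose and 5 fell (median 0.02), a split near the all-gene shares of 30.1% and 29%. In IgE those shares were 30.5% and 33.6%. By total count the splits of the list were 2 and 7, and 2 and 7. Pcyt1a, the rate-limiting enzyme of phosphatidylcholine synthesis, rose by 1.26 in IgE and 0.60 in IgG1, while Chka, the choline kinase before it, fell by 1.42 and 0.67. Cept1, which makes the final product, fell by 0.71 in IgG1 and had an interaction of 0.75 (adjusted p = 0.00154 by edgeR). None of the 14 was called between the iGC isotypes, where only 3.87% of all genes were called.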
